A study of Mus musculus with 23 samples.

Results

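A set of 10 rows of the gene tables was examined, the maternally expressed noncoding RNAs of the mouse Dlk1-Dio3 imprinted domain on chromosome 12. They were chosen by name, with no measured value in the rule but with earlier results of these data known. They are 10 of the 26183 gene symbols in each table. The set holds 3 long noncoding RNAs (Meg3, Rian and Mirg), 2 small nucleolar RNAs (AF357359 and AF357425) and 5 microRNA hairpins (Mir770, Mir410, Mir376b, Mir3071 and Mir1906-1). RNA-seq had been done on 23 whole 129/DBA hybrid mouse embryos (E13.5), with mothers of the 129 strain and fathers that carried the Zfp57 deletion on a mostly DBA/2J background. Zfp57 encodes a KRAB zinc finger protein that maintains DNA methylation at imprinting control regions, and the study asked what is lost with the maternal and the zygotic supply of it. The M-Z- embryos (4 females, 3 males) were Zfp57-/- from Zfp57-/- mothers and had neither supply. The M-Z+ embryos (3 females, 3 males) were Zfp57-/+ from Zfp57-/- mothers and lacked only the maternal supply. The M+Z+ embryos (6 females, 4 males) were the controls. Their titles also write Zfp57-/+, the tables head them WT and the study's text gives both Zfp57+/- and Zfp57+/+, so whether each carried a mutant allele was not settled; for the study's methylation assays such embryos came from Zfp57+/- mothers. Whole embryos mix all tissues, so fewer cells of a type and less RNA per cell cannot be told apart.

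In this domain the paternal copy of the intergenic control region is methylated in sperm. The maternal, unmethylated chromosome normally transcribes a long row of noncoding RNAs that starts at Meg3, and the paternal chromosome normally transcribes the coding genes Dlk1, Rtl1 and Dio3. Meg3 is a nuclear long noncoding RNA with growth-restraining activity, Rian carries C/D-box small nucleolar RNAs in its introns, and Mirg is the host of a large microRNA cluster. These RNAs are abundant in the developing nervous system and muscle.

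The members lie in order along the plus strand of chromosome 12 in the mm9 build used by the files. Meg3 spanned chr12:110779206-110809939, with 12956 exon bases. Rian followed at chr12:110842155-110899921 with 3579 exon bases, and Mirg at chr12:110973191-110987667 with 1299. The snoRNA rows AF357425 (chr12:110874222-110874290) and AF357359 (chr12:110888919-110888948) both lay within the span of Rian and shared 0 bases with its exons, which makes them intronic. Mir1906-1 (chr12:110782751-110782830) and Mir770 (chr12:110801902-110801995) lay wholly in exons of Meg3. Mir410 (chr12:110981925-110982005) lay wholly in an exon of Mirg, and Mir376b (chr12:110961668-110961749) lay before the start of Mirg. Mir3071 (chr12:110833528-110833607) was the only member on the minus strand, within an exon of Rtl1. The row Mir1906-1 also held a copy on chromosome X (chrX:86004813-86004892) that was identical in 80 of 80 bases, and the row Mir1906-2 had the same count in 23 of 23 embryos, so that reads of the copies cannot be told apart.

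The snoRNA and microRNA sequences are shown because these short rows were counted on their own although most sit inside a longer member. The 2 snoRNA rows, read from mm9 on the plus strand, are:
AF357359: atcatgacgacaaatttaattctgagatca
AF357425: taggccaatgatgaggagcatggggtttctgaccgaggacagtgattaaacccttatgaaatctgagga
The 5 hairpins had 9 mature microRNAs in RefSeq (GRCm38.p6), given here with the seed, bases 2 to 8, in capitals:
mmu-miR-770-5p: aGCACCACgugucugggccacg
mmu-miR-770-3p: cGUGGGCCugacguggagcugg
mmu-miR-410-5p: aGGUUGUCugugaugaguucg
mmu-miR-410-3p: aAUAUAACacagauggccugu
mmu-miR-376b-5p: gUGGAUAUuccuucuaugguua
mmu-miR-376b-3p: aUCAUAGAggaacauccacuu
mmu-miR-3071-5p: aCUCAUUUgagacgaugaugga
mmu-miR-3071-3p: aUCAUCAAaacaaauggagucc
mmu-miR-1906: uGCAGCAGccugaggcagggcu
No seed was shared between 2 of these 9. Among all 1679 mature names in the table, the seed of miR-410-3p was shared with miR-344d-3p and miR-344e-3p, that of miR-410-5p with miR-494-5p, and that of miR-376b-5p with miR-376c-5p. The libraries were made as mRNA-Seq, so a hairpin or snoRNA row counts reads of longer RNA that overlap it. The mature microRNAs were not measured, and mature snoRNAs were not told apart from longer RNA.

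The promoter of Meg3 is shown because Meg3 is the first RNA of the row and most members changed with it. It runs from 250 bases before to 50 bases after the start in RefSeq and matched mm9 at 1 place on the plus strand, chr12:110778956-110779255. It held 13 CG dinucleotides, between the quartiles of 3 and 20 over 32851 such windows (median 7). The capitals mark the reverse complement of TGCCGC, the letters that ZFP57 is known to bind when their CG is methylated.
Meg3 promoter: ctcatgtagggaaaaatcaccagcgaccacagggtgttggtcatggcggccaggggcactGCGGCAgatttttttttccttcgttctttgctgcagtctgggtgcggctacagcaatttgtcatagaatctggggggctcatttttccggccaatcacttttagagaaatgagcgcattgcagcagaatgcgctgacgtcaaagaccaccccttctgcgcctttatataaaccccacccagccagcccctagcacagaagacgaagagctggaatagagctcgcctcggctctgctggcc
TGCCGC was found on either strand in 3813 of the 32851 windows (11.6%). It was not found in the windows of a second Meg3 start, of Rian or of Mirg, which says only that these letters were not in those windows.

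The libraries held 15155251 to 24078410 counts per embryo (median 17380773), and 2460255 to 3944998 reads could be assigned to a parental allele (median 2779224). Zfp57 itself lay between 25.5 and 35.3 CPM (counts scaled to a library of 1000000) in the 7 M-Z- embryos and between 52.7 and 99.1 in the other 16. Which exons were deleted is not given in the sources used here, so the remaining counts do not test the deletion itself. Summed CPM of 4 liver markers was 2904 ± 687 (SD, n = 4) in female M-Z- against 4580 ± 1454 (SD, n = 6) in female M+Z+ embryos, with overlapping ranges, and 2598 ± 1385 (n = 3) against 4927 ± 966 (n = 4) in males, where the ranges of 1612 to 4182 and 4393 to 6375 did not overlap. The sum of 4 erythroid markers was 1952 ± 639 in male M-Z- against 1114 ± 197 in male M+Z+ embryos, ranges of 1506 to 2683 and 869 to 1352 that did not overlap either. The 6 neural markers summed to 1384 ± 56.6 in female M-Z- and 1463 ± 92.8 in female M+Z+ embryos, and to 1294 ± 85.9 and 1401 ± 62.4 in the males. The 5 skeletal muscle markers summed to 894 ± 80.8 and 951 ± 136 CPM in female and 919 ± 17.3 and 962 ± 126 in male embryos, M-Z- given before M+Z+; the 3 heart markers summed likewise to 184 ± 27.6 and 164 ± 23.7, and 214 ± 43.2 and 173 ± 10.8. The 3 placental markers summed to at most 0.49 CPM in any embryo. The part of tissue makeup in the results below was not tested.

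In control embryos Rian was the most abundant of the 3 long RNAs per length. In female M+Z+ embryos it reached 231 ± 12.1 CPM per kb of exon (SD, n = 6), Meg3 75.3 ± 3.47 and Mirg 22.3 ± 1.03. The male M+Z+ levels were 234 ± 18.5, 75.8 ± 26.0 and 23.2 ± 3.0 (SD, n = 4). Length here is that of all annotated exon bases of a gene. Without division by length, the mean was higher for Meg3 than for Rian. It was 975 against 826 CPM in female M+Z+ embryos and 982 against 838 in male ones, where the ranges overlapped. Per length, the ranges of the 3 genes did not overlap in either sex. A read is counted for a row when any part of it overlaps, so the levels of the snoRNA and hairpin rows, which are short, were not ordered against these.

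**Figure D1:**
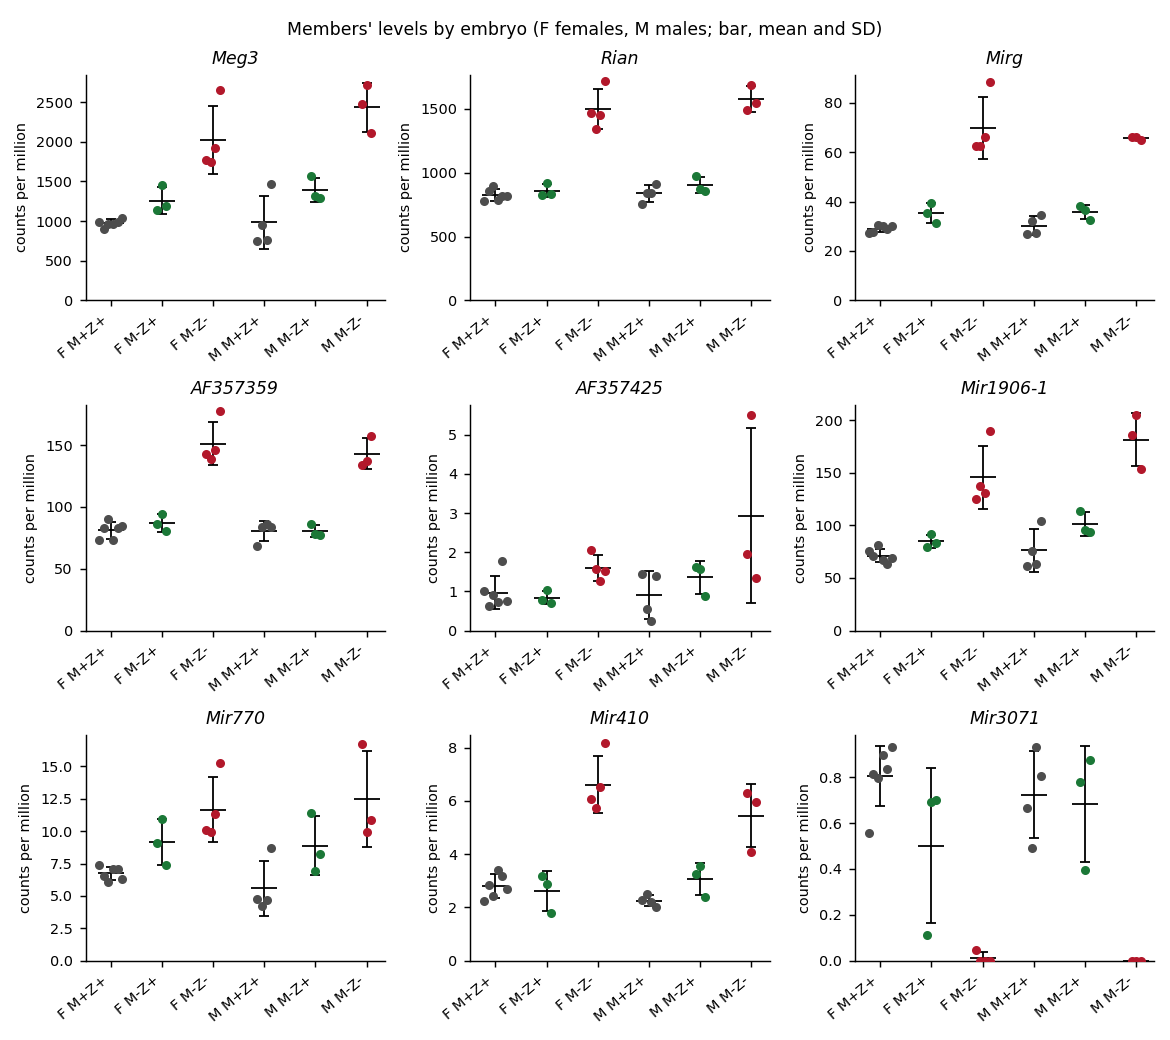
CPM of 9 members (vertical axes, linear, from 0) in each embryo, by sex and genotype; points are embryos, bars the mean and SD. Meg3, Rian, Mirg, AF357359, Mir1906-1, Mir770 and Mir410 lay higher in every M-Z- embryo than in every M+Z+ embryo of the same sex, and Mir3071 fell to 0 or 1 count; Mir376b, at 0 in all 23 embryos, is not drawn.

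When both supplies of ZFP57 were absent, 7 of the 10 members rose in females and 6 in males, most to about 2-fold, where 0.285% and 0.264% of all tested genes were called higher. Meg3, the first RNA of the row, was at 905 to 1043 CPM in the 6 female M+Z+ embryos (median 976) and at 1771, 1746, 1924 and 2658 in the 4 female M-Z- embryos. The male values were 744, 956, 764 and 1466 CPM in M+Z+ and 2480, 2718 and 2108 in M-Z- embryos. The groups did not overlap in either sex, where 2.24% of all tested genes in females and 4.41% in males lay higher without overlap. Male M+Z+ embryo 4 stood well above the other 3. The study's figures number the M+Z+ embryos in 2 series, which the labels do not tie to single embryos. The fold change was 2.07 in females (log2 1.05, SE 0.10, edgeR's quasi-likelihood test with Benjamini-Hochberg adjustment, adjusted p = 3.34e-06) and 2.56 in males (log2 1.36, SE 0.20, adjusted p = 0.00514). Without male M+Z+ embryo 4 the male log2 fold change was 1.60 (adjusted p = 0.000288), and against that embryo alone it was 0.80 (adjusted p = 0.999), a fit in which 0 members and 3 of all 17228 genes (0.0174%) were called. Against female M+Z+ embryos 4 to 6 alone, the female value was 1.03 (adjusted p = 0.000166).

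Rian, the snoRNA host, was at 778 to 896 CPM in female M+Z+ embryos (median 818) and at 1472, 1345, 1455 and 1721 in female M-Z- embryos. The male M+Z+ embryos had 752, 843, 842 and 914 CPM and the male M-Z- embryos 1491, 1688 and 1549. No M-Z- embryo came near the M+Z+ range. Its fold change was 1.81 in females (log2 0.86, SE 0.06, edgeR adjusted p = 2.16e-07) and 1.94 in males (log2 0.96, SE 0.09, adjusted p = 9.41e-05). Mirg, the microRNA host, lay at 27.2 to 30.4 CPM in female M+Z+ embryos (median 29.3) and at 62.5, 62.5, 65.9 and 88.3 in female M-Z- embryos. The male values were 26.7, 32.3, 27.1 and 34.6 CPM in M+Z+ and 66.0, 66.0 and 64.7 in M-Z- embryos. The increase of Mirg was 2.41-fold in females (log2 1.27, SE 0.09, edgeR adjusted p = 1.02e-07) and 2.24-fold in males (log2 1.16, SE 0.09, adjusted p = 4.69e-05).

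The snoRNA row AF357359 rose with its host although it shares no exon base with it. Any overlapping read counts for this row, so the mature snoRNA was not told apart from unspliced RNA of Rian. It was at 73.1 to 90.4 CPM in female M+Z+ embryos (median 83.0) and at 143, 138, 146 and 177 in female M-Z- embryos, a 1.86-fold increase (log2 0.90, SE 0.07, edgeR adjusted p = 6.79e-07). In males, M+Z+ embryos had 68.3, 83.5, 86.0 and 83.6 CPM and M-Z- embryos 134, 137 and 157, a 1.83-fold increase (log2 0.87, SE 0.08, adjusted p = 0.000118). The ratio of AF357359 to Rian differed between M-Z- and M+Z+ by 0.04 on the log2 scale in females (two-sided exact permutation p = 0.319) and by -0.08 in males (exact p = 0.486). The other snoRNA, AF357425, was counted 105 times in all 6 female M+Z+ embryos together and did not pass the test. Its levels were 0.638 to 1.77 CPM in female M+Z+ (median 0.842) and 2.06, 1.58, 1.26 and 1.53 in female M-Z- embryos (log2 0.71, edgeR adjusted p = 0.218). The male values were 1.45, 0.551, 0.232 and 1.38 CPM in M+Z+ and 1.95, 5.50 and 1.35 in M-Z- embryos (log2 1.71, adjusted p = 0.168), and the groups overlapped in both sexes. Its unadjusted edgeR p was 0.0175 in females and 0.00844 in males. Of all tested genes, 15.5% and 17.0% had an unadjusted p under 0.05. The study, with DESeq2, lists AF357425 as increased in both sexes.

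The hairpins Mir1906-1, Mir770 and Mir410 lie in exons of Meg3 or Mirg, and a read there was counted for both rows, so they are not independent of their hosts. Mir1906-1 was at 63.3 to 81.7 CPM in female M+Z+ embryos (median 70.0) and at 125, 137, 131 and 190 in female M-Z- embryos (2.04-fold, log2 1.03, SE 0.10, edgeR adjusted p = 4.96e-06). The male values went from 61.1, 75.9, 62.9 and 104 CPM to 186, 204 and 154 (2.47-fold, log2 1.30, SE 0.16, adjusted p = 0.00131). Mir410 was at 2.23 to 3.41 CPM in female M+Z+ embryos (median 2.76) and at 6.07, 5.73, 6.51 and 8.16 in female M-Z- embryos (2.35-fold, log2 1.24, SE 0.17, adjusted p = 0.000399). In males the 4 M+Z+ values were 2.28, 2.51, 2.21 and 2.02 CPM and the 3 M-Z- values 6.30, 4.10 and 5.95 (2.46-fold, log2 1.30, SE 0.20, adjusted p = 0.00794). Each M-Z- embryo lay above each M+Z+ embryo of its sex in both rows.

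Mir770, also in an exon of Meg3, rose in females from 6.06 to 7.41 CPM (median 6.78) to 10.1, 9.94, 11.3 and 15.3 (1.73-fold, log2 0.79, SE 0.13, edgeR adjusted p = 0.00540). In males the M+Z+ embryos had 4.73, 4.22, 4.65 and 8.70 CPM and the M-Z- embryos 16.8, 9.90 and 10.9, which do not overlap but did not pass the test (log2 1.20, SE 0.25, adjusted p = 0.0654). Without male M+Z+ embryo 4, the same test gave a log2 fold change of 1.48 (adjusted p = 0.0113), and DESeq2 on all embryos gave 1.20 (adjusted p = 0.00081). Against male M+Z+ embryo 4 alone, the log2 fold change of Mir770 was 0.58. Mir376b had 0 counts in all 23 embryos, and the groups' depths allow at most 0.0281 to 0.0629 CPM.

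Mir3071, the hairpin on the opposite strand, went the other way. It was counted 86 times in the 6 female M+Z+ embryos (10 to 17 each) and 1 time in the 4 female M-Z- embryos, a ratio of 62.1 after scaling to the library totals (95% exact interval 10.9 to 2483, counting error only). The male M+Z+ embryos held 54 counts (8 to 16 each) and the male M-Z- embryos 0, at least 11.7-fold lower with 3 counts over the group taken as the limit. The decrease passed edgeR's test in females (adjusted p = 0.000351) and males (adjusted p = 0.0128). Rtl1, the retrotransposon-like coding gene whose exon contains Mir3071 on that strand, fell from 8.28 to 17.2 CPM in female M+Z+ to 0.228 to 1.09 in female M-Z- embryos. Mir136, which covers 62 of the 80 bases of Mir3071 on the plus strand, had at most 3 counts in an embryo. A check of strand with Xist and Tsix, which share 1959 exon bases on opposite strands, gave 0.140 to 0.445 Tsix counts per 100 Xist counts in the 13 females. In its annotated strand and in its direction of change, Mir3071 went with Rtl1 and not with the other members, against its place among the maternally expressed RNAs. Of all tested genes, 2.05% in females and 6.36% in males lay lower without overlap.

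Of the 10 members, 9 passed the filter on low counts in each sex. A gene is called here at an adjusted p under 0.05 with a log2 fold change of 0.5 or more in size. In females 7 members were called higher and 1 lower in M-Z- than in M+Z+ embryos, against 0.563% of all 16871 tested genes called (0.285% higher and 0.279% lower). In males 6 were called higher and 1 lower, against 0.39% of 16664 (0.264% higher and 0.126% lower). The median log2 fold change of the 9 was 0.90 in females and 1.20 in males, beside -0.0036 and 0.0017 over all tested genes. Against M-Z+ embryos, M-Z- females had 6 members called higher and 1 lower, where 0.196% of all genes were called (0.124% higher and 0.0711% lower). The M-Z- males had 3 higher and 1 lower, where 0.15% were called (0.084% higher and 0.066% lower). In that comparison Rian was 1.75-fold higher in females (edgeR adjusted p = 1.5e-05) and 1.83-fold in males (adjusted p = 0.000778), and Mirg 1.99-fold (adjusted p = 6.69e-05) and 1.92-fold (adjusted p = 0.000582). Meg3 was 1.62-fold higher in females (adjusted p = 0.0114), while in males its 1.83-fold difference did not pass (adjusted p = 0.260).

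**Figure D2:**
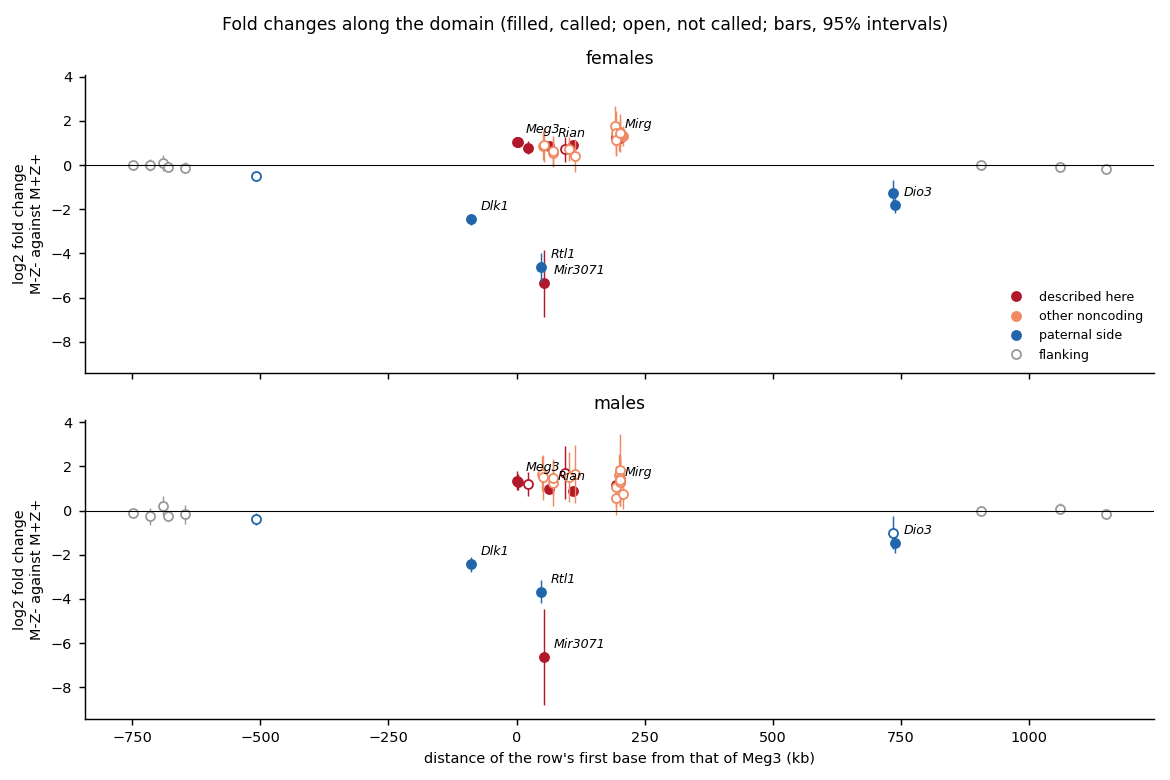
Log2 fold change of M-Z- against M+Z+ embryos (vertical axis) against distance from the first base of Meg3 in kb (horizontal axis), for females (top) and males (bottom); points are gene rows with 95% intervals, filled where called. The fitted members other than Mir3071 and the other noncoding rows lie above 0, Begain, Dlk1, Rtl1, Dio3, Dio3os and Mir3071 below, and the 8 flanking genes near 0.

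The other RNAs of the domain were measured beside the members. Of 53 other noncoding RNAs listed for the domain, 46 had reads, but only 14 in females and 15 in males passed the filter on low counts. Leaving out Mir1906-2, whose counts equal those of Mir1906-1, all 13 in females and all 14 in males had a fitted log2 fold change above 0 in M-Z- embryos, with medians of 1.13 and 1.48. Only 3 were called in females (Mir369 at 1.49, Mir3072 at 1.31 and Mir377 at 1.30) and 0 in males by edgeR, where 13 of the 14 had an unadjusted p under 0.05, as did 17.0% of all tested genes. The 3 called rows lay within the span of Mirg, and others lay within that of Rian or Mirg. A read that overlaps such a row and a host exon counts for both, so these rows cannot be taken as independent of the members. On the paternal side, Dlk1, a membrane protein related to the Notch ligands, was lower by log2 -2.46 in females and -2.43 in males. Rtl1 was lower by -4.62 and -3.67, and Dio3, the thyroid hormone inactivating deiodinase, by -1.82 and -1.49. Dio3os was called in females (-1.26, edgeR adjusted p = 0.0317) and not in males (-1.003, adjusted p = 0.183), and Begain in neither sex: its difference in females was -0.497, with an edgeR adjusted p of 0.00918 but under the minimum of 0.5, and in males -0.38 (adjusted p = 0.185). Of the 8 flanking genes 0 were called by edgeR in either sex, with 1 at an unadjusted p under 0.05 in each.

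The reads that cover a strain variant showed on which chromosome the additional RNA arose. Meg3, Rian, AF357359, Mir770 and Mir1906-1 had enough such reads to test. Mir770 and Mir1906-1 lie wholly in exons of Meg3, so their allele reads are not independent of those of Meg3. In M+Z+ embryos Meg3 was almost wholly maternal: the paternal share was 0.0917% to 0.755% in the 6 females (median 0.557%) and 0.0903, 0.154, 0.183 and 0.406% in the 4 males, each over 3270 to 5666 reads. The M-Z- values were 51.5, 50.8, 51.0 and 51.2% in females and 52.6, 52.4 and 53.6% in males, over 7218 to 11231 reads. The M-Z- embryos lay close to balance and more than 50 percentage points above all M+Z+ embryos (two-sided exact permutation p = 0.00476 in females and 0.0286 in males, the smallest these group sizes can give; 0.00952 and 0.0286 adjusted over 10 tests). Of all genes with over 10 allele reads in each embryo, 0.558% in females and 2.9% in males lay higher without overlap.

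The reads of Rian became biparental as well. Its paternal share was 0.686% to 1.53% in female M+Z+ embryos (median 0.970%) and 45.6, 44.9, 44.6 and 44.9% in female M-Z- embryos. The male shares were 0.621, 0.442, 0.655 and 0.863% in M+Z+ and 45.6, 45.7 and 44.7% in M-Z- embryos. Mir1906-1 reached 49.3, 51.5, 49.0 and 53.5% in female and 51.9, 53.0 and 54.0% in male M-Z- embryos, from at most 0.727% in any M+Z+ embryo. Mir770 was at 0% in all 10 M+Z+ embryos, over 28 to 66 reads each, and at 30.9% to 61.7% in the female and 52.0% to 66.7% in the male M-Z- embryos.

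AF357359 rested on 15 to 75 reads per embryo. It was at 56.0, 68.9, 44.9 and 47.5% in female and 41.2, 50 and 57.1% in male M-Z- embryos. Its M+Z+ shares were 0% to 3.33% in 9 of the 10 embryos and 25.9% (7 of 27 reads) in a female. All 5 tested members were called in both sexes by edgeR's allele test, where called means an adjusted p under 0.05 and at least 10 percentage points of difference, against 0.425% of all 6582 tested genes in females (0.122% higher) and 2.53% of 6534 in males (0.138% higher). Mirg had 0 to 4 allele reads per embryo and AF357425, Mir410, Mir376b and Mir3071 had 0, so their parental origin was not measured.

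**Figure D3:**
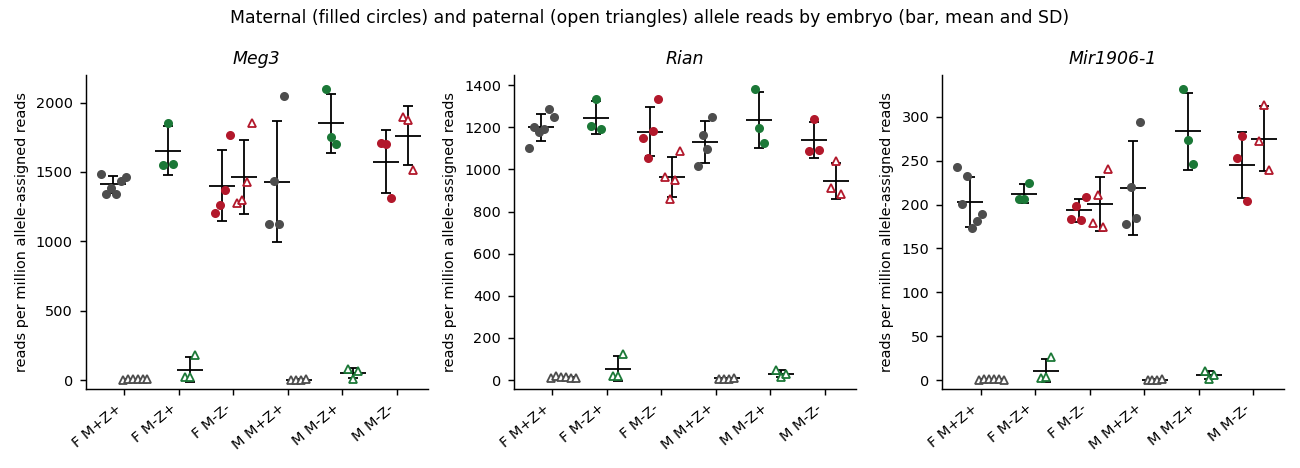
Maternal reads (filled circles) and paternal reads (open triangles) of Meg3, Rian and Mir1906-1, in RPM of the reads assigned to an allele (vertical axes, linear), by sex and genotype; bars are the mean and SD. The maternal reads of the M-Z- embryos overlap those of the M+Z+ embryos, while their paternal reads rise from near 0 to about the maternal level.

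Counting each allele on its own separated the increase into its parts. Maternal reads of Meg3 were 1409 ± 63.1 RPM (reads scaled to 1000000 reads assigned to an allele) in female M+Z+ (SD, n = 6) and 1401 ± 256 in female M-Z- embryos (SD, n = 4), a log2 difference of -0.06 (95% interval -0.27 to 0.15). In males they were 1431 ± 435 (n = 4) and 1574 ± 226 (n = 3), a difference of 0.12 (-0.21 to 0.45). Paternal reads of Meg3 went from 7.50 ± 3.44 to 1464 ± 268 in females on the same scale and from 3.41 ± 3.33 to 1761 ± 213 in males.

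For Rian, the maternal reads were 1201 ± 64.1 in female M+Z+ and 1180 ± 117 in female M-Z- embryos (log2 -0.08, 95% interval -0.24 to 0.09), and 1130 ± 100 and 1139 ± 86.4 in males (-0.01, -0.23 to 0.21). The paternal reads of Rian rose from 12.3 ± 4.23 to 965 ± 94.4 in females and from 7.40 ± 2.47 to 946 ± 84.3 in males. Over the 5 testable members, 0 were called for maternal reads by edgeR in either sex, against 0.488% of all genes called in females and 2.58% in males, and 0 had an unadjusted p under 0.05, beside 8.98% and 13.2% of all genes. For paternal reads all 5 were called higher in both sexes, against 0.103% (0.077% higher) and 2.49% (0.368% higher) of all genes called. The intervals leave room for a maternal change of Meg3 of up to 1.37-fold in males. They are wider for rows with fewer reads, reaching 1.95-fold for Mir770 in males and down to 0.53-fold for AF357359 in either sex.

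The same embryos gave the levels of allele assignment in other genes. The median paternal share over autosomal genes was 49.4% to 50% per embryo, while of all autosomal allele reads 43.3% to 48.4% were paternal. Dlk1, on the same chromosome, moved in the opposite direction, from 92.0% paternal in female M+Z+ embryos to 53.5% in female M-Z- embryos and from 91.9% to 49.8% in males. Igf2r, a maternally expressed gene of another chromosome, had a paternal share of at most 0.676% in any embryo. Of 90 X-linked genes with at least 200 allele reads over the 10 males, 76 had a paternal share of at most 1%, where a male has no paternal X, and 10 had over 80%. Of all X-linked allele reads in the males, 32.4% to 37.3% were assigned to the father.

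When only the maternal supply was absent, the total levels did not pass the test with all embryos and no replicate term in the model, while the paternal share of Meg3 was above the M+Z+ range of its own sex in every embryo. Meg3 was at 1138, 1450 and 1184 CPM in the 3 female M-Z+ embryos, all above the 6 female M+Z+ embryos, a pattern that 2.24% of all tested genes showed in females; Mirg was the only other member with it. In males 0 members showed it, against 7.39% of all genes. No member lay lower without overlap in either sex, against 1.03% and 5.06% of all genes. The difference of 0.35 (log2, SE 0.11) did not pass edgeR's test over all genes (adjusted p = 0.705). In males Meg3 was at 1567, 1317 and 1288 CPM, within the range set by M+Z+ embryo 4 but for 1 embryo (log2 0.48, SE 0.20, adjusted p = 0.606). Without that embryo Meg3 was called in male M-Z+ embryos (log2 0.73, SE 0.14, edgeR adjusted p = 0.0493). In that fit 54 of all 16600 tested genes (0.325%) were called. Against male M+Z+ embryo 4 alone, the log2 difference of Meg3 was -0.07. Rian was at 824, 922 and 836 CPM in female and 972, 871 and 858 in male M-Z+ embryos, with log2 differences from M+Z+ of 0.05 (95% interval -0.10 to 0.20) and 0.08 (-0.11 to 0.28). Mirg differed by 0.28 (SE 0.10) in females and 0.23 (SE 0.10) in males. With all embryos and no replicate term in the model, no member was called by edgeR or DESeq2 in either sex, against 0.0593% of all genes called in females and 0.048% in males. In each sex 4 of 9 members had an unadjusted p under 0.05, beside 6.64% and 7.86% of all genes.

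**Figure D4:**
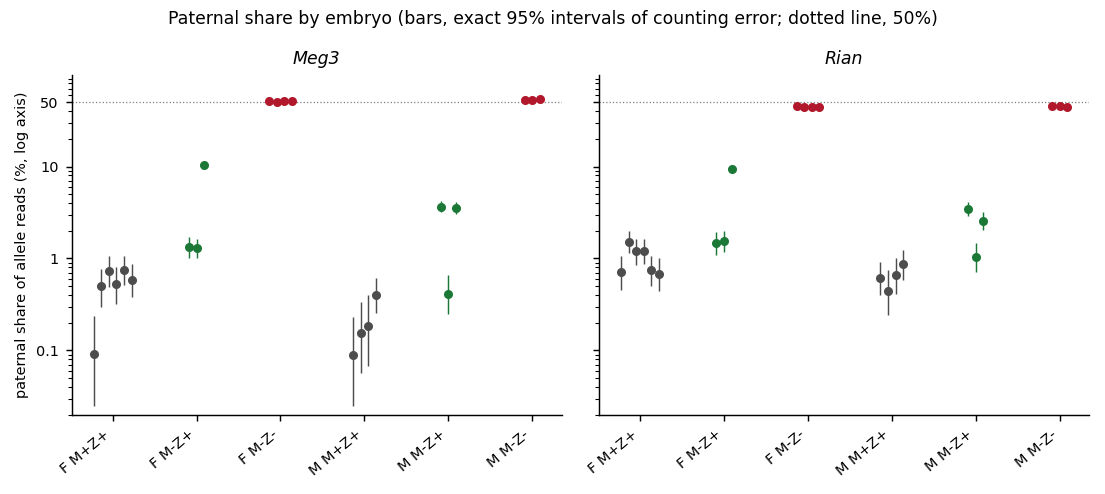
Paternal share of the allele reads of Meg3 and Rian in each embryo (vertical axis in percent, logarithmic), by sex and genotype; bars are exact 95% intervals of counting error and the dotted line is 50%. For Meg3 the 6 M-Z+ embryos lie above all M+Z+ embryos of their sex, from 0.415% to 10.3%, and the M-Z- embryos lie at the line.

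The paternal share of Meg3 in the 3 female M-Z+ embryos was 1.33, 1.30 and 10.3% (58 of 4351, 68 of 5223 and 502 of 4854 reads), each above the highest of the female M+Z+ embryos. In the 3 male M-Z+ embryos the share was 3.67, 0.415 and 3.56% (197 of 5374, 18 of 4336 and 172 of 4832 reads). The second of these lay only just above the highest M+Z+ male at 0.406%. The mean difference was 3.79 percentage points in females (two-sided exact permutation p = 0.0119) and 2.34 in males (exact p = 0.0286), the smallest p these group sizes can give. Over the 10 such tests of the members, both had an adjusted p of 0.0571. Of all genes, 1.39% in females and 2.88% in males lay higher without overlap.

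Both sexes were then tested jointly with labels permuted within sex, a test added after the data had been seen. The difference for Meg3 was 3.07 percentage points (exact p = 0.00034, the smallest that 2940 arrangements can give; 0.0017 adjusted over the 5 members). Female M-Z+ embryo 3 carried much of its size: without it the difference was 1.56 points, with an exact p of 0.00102. Of the 6509 genes with over 10 allele reads in all 16 M+Z+ and M-Z+ embryos, 0.0768% had every M-Z+ embryo above every M+Z+ embryo in both sexes; Meg3 was among these 5.

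Rian was at 1.47, 1.54 and 9.37% in female and 3.45, 1.04 and 2.56% in male M-Z+ embryos, and Mir1906-1 at 0.867, 1.88 and 10.3% and at 2.96, 0.296 and 2.32%. For both, female embryo 3 was the highest and male embryo 2 the lowest of its group, as in Meg3. For Mir1906-1 this is not separate evidence, since it lies in an exon of Meg3. Over both sexes Rian differed by 2.41 points (exact permutation p = 0.00068; 1.10 points without female M-Z+ embryo 3) and Mir1906-1 by 2.80 points (exact p = 0.00102; 1.32 points without it), both 0.0017 adjusted over the 5 members. Mir770, with 45 to 78 reads, had 2.74% and 8.62% in 2 females and 1.59% and 3.08% in 2 males and 0% in the other 2 M-Z+ embryos (exact p = 0.0119 over both sexes, adjusted 0.0149). AF357359, with 15 to 37 reads, showed no difference that its depth could resolve (0.98 points, exact p = 0.849).

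By edgeR's allele test no member had both an adjusted p under 0.05 and the 10 points of difference asked for in M-Z+ embryos of either sex, against 0.182% of all genes called in females and 0.168% in males. Maternal reads were called for 0 members by edgeR in either sex, against 0.282% of all genes called in females and 0.25% in males. At an unadjusted p under 0.05 there was 1 member in females and 3 in males, beside 6.73% and 7.74% of all genes. In males Meg3 (adjusted p = 0.00323) and Rian (adjusted p = 0.00203) passed on p alone, where 13 of all 6534 genes had an adjusted p under 0.05. In females 4 of the 5 members had an unadjusted p under 0.05, as did 5.85% of all genes. Paternal reads alone were called higher for Meg3 and Rian in male M-Z+ embryos (log2 3.91, edgeR adjusted p = 0.0173, and 2.005, adjusted p = 0.0241), and these were the 2 called among 7601 genes (0.0263%). That call rests on few embryos: leaving out 1 male embryo at a time gave 0 to 3 called members, with 0 without male M+Z+ embryo 1, 2 or 3 or male M-Z+ embryo 3, and 1 without male M-Z+ embryo 1. In females 0 members and 0 of all 7788 genes were called for paternal reads (Meg3 log2 3.24, adjusted p = 0.0504), and 3 members were called without female M-Z+ embryo 1 or without embryo 2. Dlk1 stayed at 92.2% paternal in female and 92.5% in male M-Z+ embryos (two-sided exact permutation p = 0.714 and 0.429 against M+Z+). Allele-assigned reads of the flanking genes together were 39.3% to 49.0% paternal over all embryos.

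Females and males were compared directly. In M+Z+ embryos 0 members differed between the sexes by edgeR or DESeq2, against 0.0817% of all 17139 genes called, and 0 had an unadjusted p under 0.05, beside 4.92% of all genes; Meg3 differed by log2 -0.01 (95% interval -0.31 to 0.29) and Rian by -0.02 (-0.17 to 0.13). The interaction of sex with genotype was called for 0 members and 0% of all genes by edgeR and for 0 members by DESeq2, in M-Z- and in M-Z+ embryos, with 0 members and 1107 and 625 of the 17139 genes at an unadjusted p under 0.05.

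The proportions among the members were compared in 28 tests of 7 ratios. None had an adjusted p under 0.05, and the smallest p belonged to Mirg. In female M-Z- embryos Mirg was higher relative to Rian by 0.40 on the log2 scale and relative to Meg3 by 0.22, each embryo above each M+Z+ embryo (two-sided exact permutation p = 0.00476 for both, adjusted 0.0667). In males the difference relative to Rian was 0.22 (exact p = 0.0571) and that relative to Meg3 was -0.23 (exact p = 0.257). Mir770 relative to Meg3 differed by -0.26 in female M-Z- embryos, each below each M+Z+ embryo (exact p = 0.00952, adjusted 0.0833), and by -0.17 in male M-Z- embryos (exact p = 0.543). Rian relative to Meg3 differed by -0.30 in female M-Z+ embryos (exact p = 0.0119, adjusted 0.0833) and by -0.18 in female M-Z- embryos (exact p = 0.0714). In males the same ratio differed by -0.45 in both M-Z+ and M-Z- embryos, with overlapping values (exact p = 0.114 for both).

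Of the genes outside chromosome 12, those whose levels were most like Meg3 are given as a description. Likeness was measured over the 23 embryos as the root mean square difference of log2(CPM + 1), each gene centred on its mean, for genes averaging 1 CPM or more. The closest were Nnat (0.255), Plagl1 (0.273), Ddc (0.287), Mest (0.289) and Ndn (0.299), where the median over 15502 genes was 0.574. Among the members, Mir1906-1 (0.110), Mirg (0.189) and Rian (0.239) were closer still. Mir770 (0.257), AF357359 (0.288), Mir410 (0.344) and AF357425 (0.401) were less close than Nnat. Plagl1, a zinc finger transcription factor, was at 601 ± 53.7 CPM in female M+Z+ embryos (SD, n = 6), 600 ± 27.5 in M-Z+ (n = 3) and 1201 ± 70.9 in M-Z- (n = 4). Ndn, a MAGE family protein, was at 221 ± 12.3, 319 ± 62.5 and 413 ± 14.4 CPM in the same order.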

How the data were processed

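The authors aligned the reads to mm9 with STAR 2.7.8a, keeping uniquely mapped reads, and counted them per UCSC mm9 gene by strand with featureCounts (Subread 2.0.1), each read counting for every gene it overlaps; these deposited counts are raw. For the allelic counts, per the study's methods, the authors called variants with GATK, masked mm9, aligned with STAR, split reads by parent with SNPsplit and counted them per gene. All 69 count columns were used. The allelic columns of 4 of the 6 female M+Z+ embryos carry no usable replicate number and were used as embryos of the group only.

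From the counts, CPM were computed from column totals, and genotypes were compared within a sex with edgeR 4.0.16 (R 4.3.3; TMM scaling, filterByExpr, quasi-likelihood test, Benjamini-Hochberg adjustment over all genes tested). Calls needed an adjusted p under 0.05 and a log2 fold change of 0.5 (0.3 between sexes). Allele shares were tested with edgeR on maternal and paternal columns with an embryo effect, for genes averaging 20 or more reads assigned to an allele; calls needed 10 percentage points. Mean shares were also compared by two-sided exact permutation tests over embryos with more than 10 allele reads. Intervals of shares are exact (Clopper-Pearson, 95%) and cover counting error only; a count of 0 allows 3 counts. Library totals are given in the report. p-values measure the spread between embryos, whose litters the labels do not give. Alternatives were DESeq2 1.42.0, library-size scaling, no filter, no minimum change, a replicate block, other subsets of M+Z+ embryos and leaving out each embryo. Scripts were tested on simulated data. The named genes are all 10 members, other RNAs and genes of the domain from fixed lists, and the 5 genes outside chromosome 12 closest to Meg3. The members and lists were chosen with earlier results of these data known.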

Additional observations from a re-analysis of the deposited data

Results flagged for a closer look

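Among 40 groups of 4 to 6 embryos, 8 held a value whose gap to its nearest neighbour was large for the range of the group; for continuous values chance alone gives about 1 in 20, and 2 of the 8 are single reads among zeros, where the gap is the whole range. For Mirg, female M-Z- embryo 4 had 88.3 CPM, where the other 3 had 62.5 to 65.9. That embryo also had the highest Meg3, Rian, AF357359, Mir1906-1, Mir770 and Mir410 of its group, but not the highest AF357425. For AF357359, male M+Z+ embryo 1 had 68.3 CPM, where the others had 83.5 to 86.0. For AF357425, female M+Z+ embryo 5 had 1.77 CPM, where the others had 0.638 to 1.00. For Mir770, male M+Z+ embryo 4 had 8.70 CPM, where the others had 4.22 to 4.73; the same embryo had the highest Meg3 of its group. For Mir3071, female M+Z+ embryo 1 had 0.557 CPM, where the others had 0.795 to 0.931, and female M-Z- embryo 1 had 0.0489 CPM (1 count), where the others had 0. The paternal share of AF357359 was 25.9% in female M+Z+ embryo 2 (7 of 27 reads), where the others had 0 to 3.33%, and 2.5% in male M+Z+ embryo 3 (1 of 40 reads), where the others had 0. In that female, Meg3 was at 0.496% over 3830 reads and Rian at 1.53% over 3470. No cause was tested for any of these.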

How the results depend on the processing

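Of 337 counts of members and pooled differences recomputed under alternatives, 323 were rated the same, 7 weaker and 7 stronger. A count of members was rated the same when equal or near to the main count, and a count could not reverse. Of 641 values of single members, 609 kept their side of the threshold, 17 weakened and 15 strengthened. Of these values, 0 changed sign where the main or the alternative fit was called. The members called in M-Z- against M+Z+ females were 8 whichever embryo was left out, and in males 7 to 9. A fit with 9 called members includes AF357425, which was not called in males with all embryos. With the only male M+Z+ embryo numbered 4 or higher as the control group, 0 members and 3 of 17228 genes were called for M-Z- males, and 0 of both for M-Z+ males, where that control is assumed to vary like the other groups. Leaving out 1 embryo gave 5 to 7 members in M-Z- against M-Z+ females, 3 to 6 in males, and 0 to 1 in M-Z+ against M+Z+ males (Meg3, without male M+Z+ embryo 4). Without a minimum difference, 2 members had a shifted paternal share in male M-Z+ embryos, where 13 of all 6534 genes did. For paternal reads in M-Z+ embryos, leaving out 1 embryo gave 0 to 3 members in females and 0 to 3 in males, and scaling by library size alone gave 1 in females. The difference of the Meg3 share in M-Z+ embryos ranged from 1.56 to 3.82 points.

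Replicate numbers are shared between groups but did not pair the embryos: the correlation of same-numbered embryos was above 0.1 in 2 of 10 pairs in females and 2 of 9 in males (r from -0.25 to 0.22 and from -0.16 to 0.42). With the replicate block, 3 members were called in M-Z- against M-Z+ females, 1 in M-Z+ against M+Z+ males (Meg3), and 1 for maternal reads in male M-Z+ embryos. Mir770 in females was not called with the block (log2 0.76, edgeR adjusted p = 0.0787). Where these counts changed, the cause was not tested. Mirg had 0 to 4 allele reads per embryo, and AF357425, Mir410, Mir3071 and Mir376b had 0, so no setting gave their parental origin.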
